A study of Homo sapiens with 41 samples.

Results

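In A375 cells, a human melanoma line that carries an activated BRAF kinase, 62 genes were lower after 6 h of the BRAF inhibitor vemurafenib and back near, or above, the vehicle level after 48 h. They were taken from the group means of the 9 culture libraries. A gene entered with a vehicle mean of 30 or more normalised reads, a log2((6 h + 1)/(vehicle + 1)) of -0.8 or less, and a log2((48 h + 1)/(vehicle + 1)) of -0.3 or more. Of the 23368 genes in the table, 12161 reached that vehicle mean, and 547 of these were past the 6 h threshold. The 62 genes are 11.3% of those 547, and the other 485 were below the 48 h threshold too. Every library of A375 culture was used in this choice, so the values there describe the genes and no test was made on them.

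BRAF sends signals through the kinases MEK and ERK, which act on many genes directly and on others through factors made in the first hours. Inhibition lowers ERK output within hours, and feedback and changes of cell state follow over days. Melanoma cells descend from the neural crest, whose development uses AP-2 factors, endothelin receptor B and the inhibitors of helix-loop-helix factors called ID proteins. Among the 62, TFAP2B, EDNRB and ID4 belong to those families, named here after their values were seen.

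The study set out to record what inhibition of the driver kinase does to sensitive melanoma and lung adenocarcinoma cells, and what different tumours do to resistant cells. The A375 culture groups were vehicle, vemurafenib for 6 h and vemurafenib for 48 h, both at 0.1 µM, with whole-cell RNA sequenced (n = 3 each). Whole-cell RNA also came from the melanoma lines Colo800 and UACC62 after 48 h of vemurafenib at 1 µM or in vehicle (n = 2 each), and from the lung adenocarcinoma line H3122 after 48 h of crizotinib, an ALK inhibitor, at 0.3 µM or in vehicle (n = 2 each). Ribosome-bound RNA, pulled down through GFP, came from A375 tumours in mice after 10 doses of vemurafenib at 75 mg/kg or vehicle (n = 4 each). The same RNA came from tumours of the resistant line A375R, grown mixed with A375 cells or alone, after 10 doses of vemurafenib at 75 mg/kg or vehicle (n = 3 each). The drug was added with a change to low-serum medium and the labels give no time for the vehicle wells, so the 6 h of drug and the time since that change cannot be told apart. The labels name no separate cultures or animals, and p-values measure the spread between the deposited libraries. A375 culture libraries held between 9633599 and 12657149 reads, and those of the other tables between 8063754 and 42843612.

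The stretches before the start of these genes differ in their letters, and RefSeq's sequence of the 250 bases before each start (GRCh38.p14) is printed for the 2 members with the lowest 6 h ratio that have an entry there, a neural crest receptor, and a pair of transcription factors described next. Capitals mark matches, on either strand, to the letters of the motifs searched. ID4 lies at chr6:19837120-19837369 (plus strand), IGFBP5 at chr2:216695550-216695799 (minus strand), EDNRB at chr13:77919683-77919932 (minus strand), TFAP2B at chr6:50818621-50818870 (plus strand) and BHLHE40 at chr3:4979187-4979436 (plus strand).
ID4: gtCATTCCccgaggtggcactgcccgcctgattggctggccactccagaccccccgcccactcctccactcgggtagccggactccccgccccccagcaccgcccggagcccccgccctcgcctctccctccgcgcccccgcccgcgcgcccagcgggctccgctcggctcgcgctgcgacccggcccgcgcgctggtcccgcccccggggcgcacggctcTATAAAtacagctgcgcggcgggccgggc
IGFBP5: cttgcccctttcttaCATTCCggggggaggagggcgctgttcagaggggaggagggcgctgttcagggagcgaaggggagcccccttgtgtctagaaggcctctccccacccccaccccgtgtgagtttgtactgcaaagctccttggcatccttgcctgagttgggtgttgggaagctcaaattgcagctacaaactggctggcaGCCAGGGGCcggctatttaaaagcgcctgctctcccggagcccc
EDNRB: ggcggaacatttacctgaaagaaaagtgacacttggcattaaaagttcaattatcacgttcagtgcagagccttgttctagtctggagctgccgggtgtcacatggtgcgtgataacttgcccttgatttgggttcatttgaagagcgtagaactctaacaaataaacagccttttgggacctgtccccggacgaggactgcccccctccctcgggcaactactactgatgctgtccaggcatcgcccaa
TFAP2B: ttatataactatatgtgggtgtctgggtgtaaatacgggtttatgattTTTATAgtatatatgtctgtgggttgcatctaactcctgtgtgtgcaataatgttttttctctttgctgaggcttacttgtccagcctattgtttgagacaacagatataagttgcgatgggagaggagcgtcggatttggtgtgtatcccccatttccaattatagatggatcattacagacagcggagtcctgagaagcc
BHLHE40: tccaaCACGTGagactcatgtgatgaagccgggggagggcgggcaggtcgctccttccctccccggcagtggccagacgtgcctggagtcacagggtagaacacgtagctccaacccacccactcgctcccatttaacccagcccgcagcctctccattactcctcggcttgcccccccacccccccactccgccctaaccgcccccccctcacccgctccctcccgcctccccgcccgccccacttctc
ID4 holds the TATA box letters TATAAA close to its start and, far upstream, the reverse complement of GGAATG, the letters read by TEAD factors. IGFBP5 holds the same TEAD letters and a match to GCCNNNGGC, the letters read by AP-2 factors. BHLHE40 holds the E-box CACGTG, TFAP2B the reverse complement of TATAAA, and EDNRB none of the motifs searched.

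Of the 62 symbols, 59 matched RefSeq, 58 of them protein-coding genes, and 46 had such a stretch in the table. The AP-2 letters GCCNNNGGC stood in 17 of the 46 (37.0%), against 19.7% of all 27305 stretches and 24.2% of those of protein-coding genes. The members' stretches were richer in G and C, with a median of 66.6% against 62.4% for protein-coding genes. The TEAD letters stood in 6 of the 46 (13.0%), against 11.9% of all stretches. The AP-1 letters TGANTCA stood in 3 (SLITRK6, C9orf167 and DLX1), 6.52% against 6.60% of all stretches. The CArG box stood in 2 (ATXN1 and PDGFA), 4.35% against 1.14% of all. TATAAA stood in 4 (ID4, CREB5, TFAP2B and PTGS2), 8.70% against 11.1% of all, and CACGTG in BHLHE40 alone, 2.17% against 6.49% of all. The CRE letters TGACGTCA and the ETS letters CCGGAAGT stood in 0 of the 46, against 1.77% and 3.64% of all. These matches describe letters, and whether a factor binds there was not tested.

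The log2 ratio of the 62 genes at 6 h had a median of -0.95 and ran from -2.79 to -0.80, and at 48 h it had a median of 0.15 and ran from -0.28 to 2.46. Over all 12161 genes the medians were -0.02 at 6 h and -0.06 at 48 h. Every 6 h library lay below every vehicle library for 51 of the 62 (background 13% of the 12161 genes), and below every vehicle and every 48 h library for 47 (background 2.89%), counts that the rule itself favours. For 14 members every 48 h library lay above every vehicle library (background 26.1%), and for 41 the 48 h ratio was above 0. Return to the vehicle level describes 37 members, whose 48 h ratio lay within 0.3 of 0 on the log2 scale, while 9 members had a 48 h ratio of 0.8 or more and so went past it. The rule leaves out 48 h ratios under -0.3, so it shapes the counts of 41, 37 and 9. Their shares over all genes were not counted. RNA was taken from many cells together, so fewer cells with a transcript and less of it per cell cannot be told apart.

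**Figure D1:**
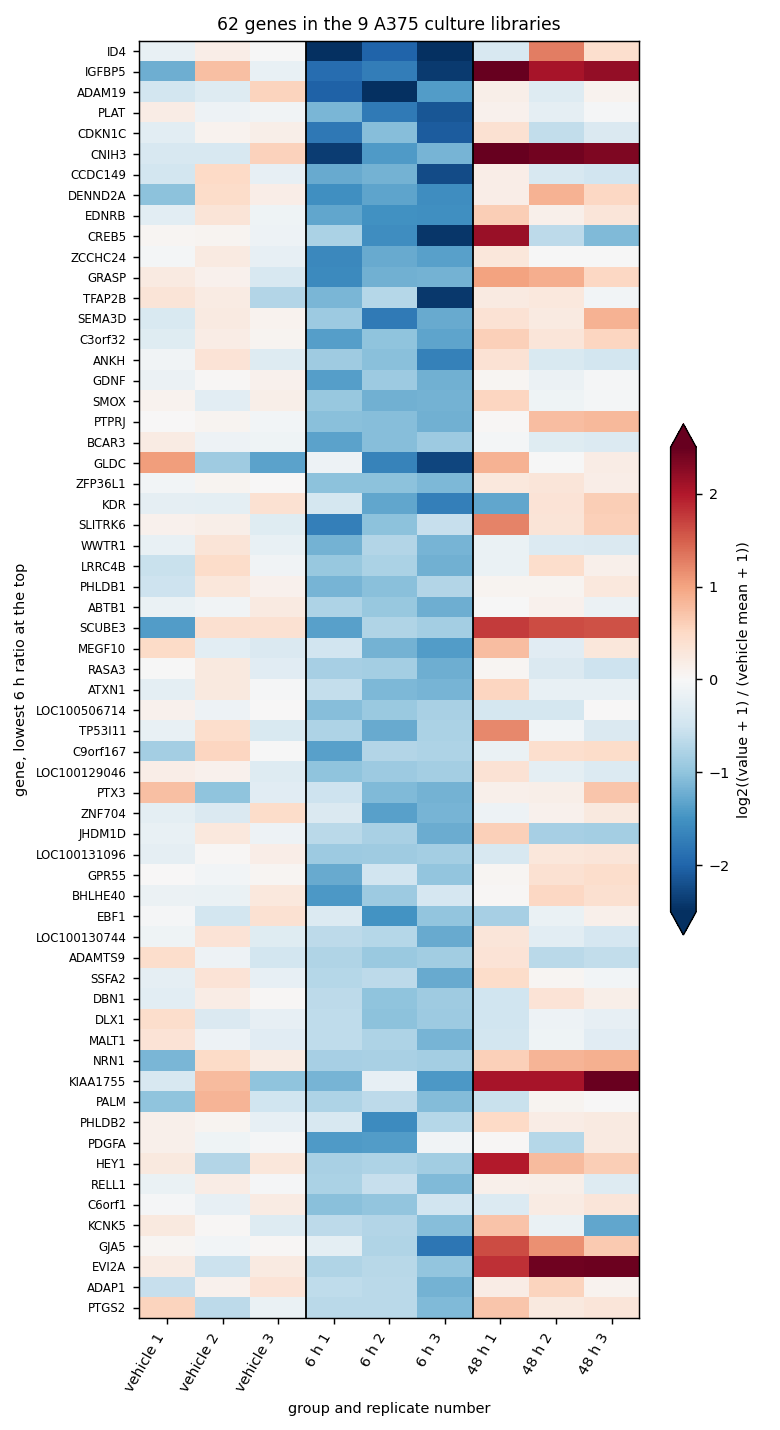
Log2((value + 1)/(vehicle mean + 1)) of the 62 genes (rows, lowest 6 h ratio at the top) in the 9 A375 culture libraries (columns, vehicle, 6 h and 48 h, replicates 1 to 3). The 6 h columns are blue by the choice of genes. IGFBP5, CNIH3, KIAA1755 and EVI2A stand out as dark red in all 48 h libraries, and CREB5 in replicate 1 alone.

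A gene picked for a low 6 h mean and an unremarkable 48 h mean can owe part of both to the spread of its libraries. The members were more variable than other genes, with a median coefficient of variation in vehicle libraries of 22.0%, against 14.3% over the 12161 genes. Their vehicle means, between 30.2 and 14167 normalised reads, had a median of 287, against 440 over all those genes, and 19 were under 100. The 6 h ratio, read within each replicate number, was past the threshold in all 3 for 19 members, in 2 for 31 and in 1 for 12. The rule used the means of these libraries and so favours such counts, and the same counts over all genes were not made.

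The rule was then applied to 2 replicate numbers, and the ratios were read in the one it had not used. With replicate 1 left out, 84 genes were chosen, and their median 6 h log2 ratio was -1.03 in the libraries used and -0.46 in replicate 1. With replicate 2 left out, 64 genes were chosen, with medians of -1.05 in the libraries used and -0.94 in replicate 2. With replicate 3 left out, 65 genes were chosen, with medians of -1.06 and -0.96. The 6 h value was below vehicle in the unused libraries for 66 of 84, 60 of 64 and 64 of 65 genes. Both conditions were met there by 19.0%, 37.5% and 43.1% of the chosen genes, against 0.667%, 0.947% and 0.872% of all genes in the same libraries. Of the chosen genes, 40 of 84, 45 of 64 and 41 of 65 are among the 62, so these shares are not those of the members. The genes set against them were not matched for spread or level. Every library of A375 culture also entered the choice of the 62, so the contrast with all genes is no test of the members. The median ratio in replicate 1 was thus smaller in size than in the libraries used, and in replicates 2 and 3 it was close to them.

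**Figure D2:**
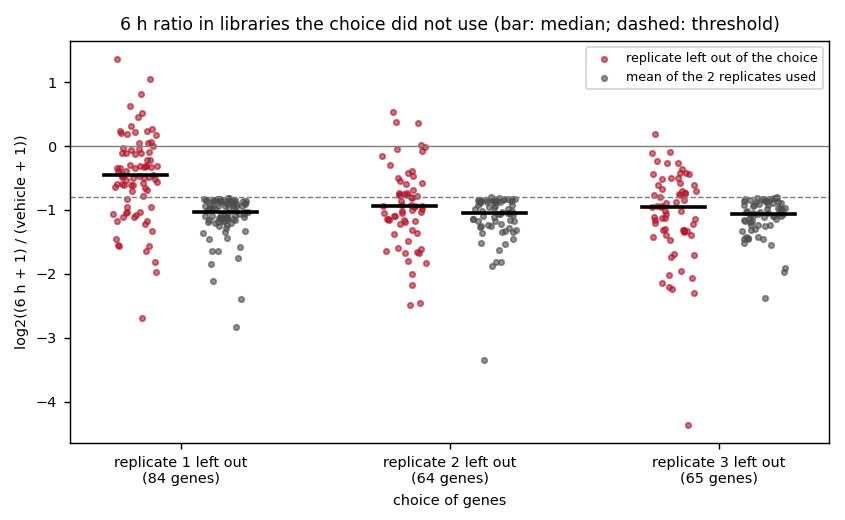
Log2((6 h + 1)/(vehicle + 1)) of genes chosen by the rule on 2 replicate numbers, in the replicate left out (red, left) and in the mean of those used (grey, right). Dots are genes, black bars medians, and the dashed line the 6 h threshold of -0.8. The red medians are -0.46, -0.94 and -0.96, and the red dots scatter more widely than the grey.

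When each of the 9 libraries was left out in turn, 19 of the 62 genes met the rule every time, and 19 met it in fewer than 7 of the 9 choices. ID4, IGFBP5, ADAM19, PLAT, CNIH3, DENND2A, EDNRB, ZCCHC24, GRASP, TFAP2B, SEMA3D, GDNF, ZFP36L1 and KDR are among the 19 that always did. At the 6 h threshold, EVI2A, ADAP1 and PTGS2 lay just inside, at log2 ratios of -0.803, -0.802 and -0.802, and ZBTB42 (-0.797) and TRPV2 (-0.797) just outside. At the 48 h threshold, WWTR1 (-0.28), MALT1 (-0.27) and DLX1 (-0.27) lay just inside, and FAM89A (-0.32), PGF (-0.31) and the MAP kinase phosphatase DUSP1 (-0.32) just outside. At the level threshold, EBF1 and GJA5 had vehicle means of 30.2 and 30.6 normalised reads, and CDC42EP5, at 29.99, was left out.

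Among transcription factors and their partners, ID4, which blocks DNA binding by helix-loop-helix factors, had the lowest 6 h ratio. It had 101, 129 and 114 normalised reads in vehicle, 14.7, 27.9 and 4.57 at 6 h, and 86.8, 280 and 155 at 48 h, a log2 ratio of -2.79 at 6 h and 0.60 at 48 h. All 6 h libraries lay far under the others, and the 48 h libraries spread to both sides of vehicle. TFAP2B, the neural crest factor AP-2 beta, had 3925, 3635 and 1902 normalised reads in vehicle, 1427, 1914 and 590 at 6 h, and 3707, 3793 and 3000 at 48 h. Its lowest vehicle library came within the 6 h range, so those groups overlapped. WWTR1 (TAZ), a co-activator of TEAD factors and the most abundant member by normalised reads, had 12385, 17619 and 12497 in vehicle, 6260, 8513 and 6355 at 6 h, and 12675, 11232 and 11073 at 48 h. Its 48 h libraries overlapped vehicle at the low end.

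The repressor BHLHE40, which takes part in circadian and low-oxygen responses, had 532, 518 and 706 normalised reads in vehicle, 216, 312 and 435 at 6 h, and 600, 840 and 770 at 48 h. HEY1, a repressor induced by Notch, had 105, 53.15 and 107 in vehicle, 50.1, 51.5 and 47.96 at 6 h, and 354, 153 and 136 at 48 h. The 6 h libraries of HEY1 were nearly equal, and its low vehicle library stood just above them. CREB5, a relative of the ATF factors, had 43.0, 43.4 and 37.6 in vehicle, 23.6, 13.5 and 6.85 at 6 h, and 188, 25.8 and 18.8 at 48 h. The 48 h mean of CREB5 rests on replicate 1, as its other 48 h libraries stayed under all vehicle libraries. DLX1, a homeobox factor, had a 6 h log2 ratio of -0.84 and a 48 h ratio of -0.27.

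Among receptors and ligands, EDNRB, the endothelin receptor of the melanocyte lineage, had 651, 982 and 725 normalised reads in vehicle, 317, 276 and 269 at 6 h, and 1211, 853 and 970 at 48 h. The 6 h libraries of EDNRB lay under every other library, and 2 of the 3 at 48 h lay within the vehicle range. KDR, the VEGF receptor of endothelium, had 369, 362 and 564 in vehicle, 317, 176 and 131 at 6 h, and 174, 544 and 661 at 48 h. Its first 48 h library lay as low as the 6 h libraries. GDNF, a ligand of the RET receptor complex, had 571, 653 and 685 in vehicle, 244, 339 and 275 at 6 h, and 655, 573 and 626 at 48 h. PDGFA, a growth factor, had a 6 h ratio of -0.82 that came from replicates 1 and 2, since replicate 3 had 70.8 at 6 h and 73.4 in vehicle. SEMA3D, a secreted semaphorin, had a 6 h ratio of -1.27 and a 48 h ratio of 0.51.

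Among secreted and surface proteins that act on the matrix, PLAT, tissue plasminogen activator, had 1570, 1267 and 1302 normalised reads in vehicle, 623, 406 and 311 at 6 h, and 1494, 1178 and 1357 at 48 h. The vehicle and 48 h libraries of PLAT interleaved, and the 6 h libraries all lay below them. ADAM19, a membrane metalloprotease, had 224, 245 and 449 in vehicle, 74.7, 43.9 and 115 at 6 h, and 341, 244 and 326 at 48 h. IGFBP5, a secreted binder of insulin-like growth factors, had 45.1, 180 and 93.2 in vehicle, 27.5, 31.2 and 19.4 at 6 h, and 647, 443 and 491 at 48 h. SCUBE3, a secreted glycoprotein, had 29.4, 105 and 104 in vehicle, 30.5, 46.4 and 43.4 at 6 h, and 268, 249 and 241 at 48 h. The 48 h level of IGFBP5 and SCUBE3 exceeded vehicle, and in replicate 1 SCUBE3 was no lower at 6 h than in vehicle.

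Among regulators of the cell cycle, mRNA decay and signalling, CDKN1C, the cyclin-dependent kinase inhibitor p57, had 103, 132 and 138 normalised reads in vehicle, 35.4, 59.1 and 28.6 at 6 h, and 162, 80.6 and 97.2 at 48 h. ZFP36L1, which speeds the decay of AU-rich mRNAs, had 941.5, 1037 and 999 in vehicle, 484, 486 and 454 at 6 h, and 1189, 1223 and 1109 at 48 h. Its libraries agreed closely within each group, and all 48 h libraries lay above all vehicle libraries. PTGS2, cyclooxygenase 2, had 56.7, 23.9 and 33.9 in vehicle, 23.6, 23.6 and 17.1 at 6 h, and 62.03, 45.4 and 47.5 at 48 h. MALT1, a protease of NF-kB signalling, had a 6 h log2 ratio of -0.84, and RASA3, which inactivates Ras and Rap proteins, one of -0.96. EVI2A had 84.0, 49.9 and 85.6 in vehicle, 43.2, 44.8 and 36.5 at 6 h, and 261, 398 and 404 at 48 h, one of the largest excesses over vehicle among the members. CNIH3, a helper of AMPA receptors, had the highest 48 h ratio, 2.46, after -1.56 at 6 h.

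Further members have roles in metabolism, adhesion and the cell surface. ANKH, a membrane protein that exports pyrophosphate, had 4721, 6318 and 3987 normalised reads in vehicle, 2723, 2426 and 1562 at 6 h, and 6412, 3833 and 3666 at 48 h. PTPRJ, a receptor tyrosine phosphatase, had 829, 864 and 787 in vehicle, 403, 394 and 360 at 6 h, and 844, 1412 and 1455 at 48 h. The libraries of PTPRJ were tight in vehicle and at 6 h, and its 48 h libraries split, with replicate 1 at the vehicle level. BCAR3, an adaptor of adhesion signalling, had 886, 702 and 710 in vehicle, 303, 364 and 406 at 6 h, and 737, 625 and 604 at 48 h. SMOX, which oxidises spermine, had a 6 h log2 ratio of -1.10 and a 48 h ratio of 0.15.

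GLDC, an enzyme of glycine cleavage, had 678, 176 and 130 normalised reads in vehicle, 299.7, 103 and 66.2 at 6 h, and 602, 324 and 374 at 48 h. The replicate 1 library of GLDC was the highest in every group, and its 6 h value lay above 2 of the vehicle libraries. SLITRK6, a surface protein of neurons, had 599, 616 and 450 in vehicle, 169, 273 and 373 at 6 h, and 1305, 692 and 834 at 48 h. NRN1, a neurite protein anchored in the membrane, had 152, 475 and 390 in vehicle, 190, 193 and 187 at 6 h, and 512, 611 and 627 at 48 h. The low first vehicle library of NRN1 lay under all its 6 h libraries, so that in replicate 1 the gene was not lower at 6 h. GJA5, a gap junction protein, had 31.5, 29.3 and 31.1 in vehicle, 25.5, 17.7 and 7.99 at 6 h, and 96.8, 69.2 and 48.6 at 48 h. ZCCHC24 (log2 ratio -1.41 at 6 h), GRASP (-1.31), CCDC149 (-1.49) and DENND2A (-1.46) were lower in all 6 h libraries than in any vehicle library.

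The listed genes of ERK output were not among the members. Of 25 genes of ERK output and feedback, all of which reached the vehicle mean, 24 had every 6 h library below every vehicle library (background 13% of the 12161 genes). For 22 every 48 h library lay below every vehicle library, a count whose background is not given here. Of the 25, 0 were members. Over all 12161 genes only 62 were, so 0 in a list of 25 says little about it. The median log2 ratio of that list was -1.76 at 6 h and -2.03 at 48 h. Of 39 immediate early genes with the vehicle mean, 2 were members (PTGS2 and ZFP36L1), and of 23 TEAD target genes, 0 were. ID4 was the member among 14 genes of TGF-beta and BMP response, HEY1 among 11 of Notch, BHLHE40 among 15 of the circadian clock, PDGFA among 32 cytokines and growth factors, and EDNRB among 6 melanocyte markers. Of those 6 markers, 2 had every 6 h library below every vehicle library and 1 had every one above. Of the 14 genes of TGF-beta and BMP response, 3 were below in this way and 1 above. KDR was the 1 endothelial marker of 10 that reached the vehicle mean. The summed level of the 13 melanocyte markers, which include EDNRB, ran in vehicle from 10558 to 13249 normalised reads, at 6 h from 7134 to 8789 and at 48 h from 15800 to 18643, with 0 of the 13 at 0 in every library of a group, and its part in the members' values was not tested.

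In Colo800, the other melanoma line with 1 µM vemurafenib for 48 h, 58 members were tested and 33 were lower (background 37.3% of 13451 genes) and 16 higher (background 36%). Their median log2 change was -0.41, against 0.00 over all genes. In this comparison 73.3% of all genes passed the test in either direction, and the members' shares were 56.9% lower and 27.6% higher. Of the 485 genes lower in A375 at both times, 417 were tested here and 82.3% were lower, with a median of -1.50. The 48 h rule in A375 separates the 485 from the members, which favours such a contrast at 48 h, here and below. Of the ERK output list, 22 of 23 tested were lower, with a median of -3.65. These values come from limma on log2(value + 1) with Benjamini-Hochberg adjustment over all genes, as do all calls that follow.

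PLAT fell to 863 and 851 normalised reads in treated Colo800 cells, against 4989 and 4956 in vehicle (log2 change -2.54, SE 0.04, limma adjusted p = 3.37e-19). BHLHE40 had 436 and 374.8 in treated cells and 1678 and 1606 in vehicle, a log2 change of -2.02. KDR had 22.3 and 10.6 in treated cells and 462 and 444 in vehicle, the largest fall among members tested there at -4.79. Lower by more than 1.9 on the log2 scale were also PTGS2, GPR55, KCNK5, ANKH, which exports pyrophosphate, the protease ADAMTS9, GLDC, which cleaves glycine, and GDNF. EDNRB rose to 27202 and 25916 normalised reads in treated cells, against 3555 and 3416 in vehicle (log2 change 2.93, SE 0.04, limma adjusted p = 4.47e-20). Smaller rises were those of PALM (1.07), ABTB1 (0.84), BCAR3, an adaptor of adhesion signalling (0.83), and ZNF704 (0.74).

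In UACC62, under the same drug, dose and time, 56 members were tested and 27 were lower (background 29.6% of 13649 genes) and 18 higher (background 26.9%), with a median log2 change of -0.36 against -0.01 over all genes. Of the 485 genes, 415 were tested and 66.0% were lower, with a median of -0.84. PTGS2 fell to 16.6 and 13.99 normalised reads in treated cells, against 325 and 331 in vehicle (log2 change -4.34, SE 0.18, limma adjusted p = 3.07e-07). IGFBP5 fell to 192 and 253 in treated cells, against 1601 and 1662 in vehicle, a log2 change of -2.88. Its change in Colo800 was 0.89, at low levels of 43.5 and 46.0 in treated cells and 23.1 and 24.4 in vehicle. The difference between these lines was not tested. EDNRB rose to 4778 and 5757 in treated cells, against 1426 and 1449 in vehicle, a log2 change of 1.87. PHLDB2, a protein of the cell cortex, rose by 2.17 and BCAR3 by 1.43 on the log2 scale.

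In H3122 lung cells after crizotinib, 46 members were tested and 22 were lower (background 24% of 13959 genes) and 14 higher (background 22.1%), with a median log2 change of -0.19 against -0.01 over all genes. Of the 485 genes, 404 were tested and 51.5% were lower. PLAT fell to 139 and 151 normalised reads in treated cells, against 2611 and 2614 in vehicle (log2 change -4.16, SE 0.09, limma adjusted p = 2.33e-10). BHLHE40 had 960 and 1057 in treated cells and 3869 and 3786 in vehicle, a log2 change of -1.93. BCAR3 fell by 1.58 in H3122 cells, while it rose in both melanoma lines, a difference that was not tested. IGFBP5 had 319 and 278 in treated cells and 34.4 and 29.4 in vehicle, a log2 change of 3.19, and SCUBE3 had 82.6 and 106 in treated cells and 9.84 and 8.81 in vehicle, a change of 3.20. EDNRB was at 0 and 1.03 in treated cells and at 0 in both vehicle libraries, so it was not tested. TP53I11 rose by 1.48 and ID4 by 1.21 on the log2 scale.

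Of the 55 members tested in both melanoma lines, 23 were lower in both, 41.8%, where the background is 23.4% of genes. Among the 43 tested in H3122 as well, 11 were lower in all 3 lines, 25.6%, with a background of 11.6%: ADAM19, PLAT, CREB5, KDR, WWTR1, RASA3, BHLHE40, DLX1, MALT1, PDGFA and PTGS2. BHLHE40 and PLAT had the steepest of these falls in H3122. MALT1 fell to 546 and 520 normalised reads in treated Colo800 cells, against 1144 and 1138 in vehicle. In UACC62 MALT1 had 155 and 165 in treated cells and 252 and 249.5 in vehicle, and in H3122 it had 215 and 234 in treated cells and 465 and 442 in vehicle. WWTR1 had 5123 and 4807 in treated Colo800 cells and 11734 and 11422 in vehicle, and in UACC62 it had 10812 and 13457 in treated cells and 17569 and 17483 in vehicle. In each line the treated libraries of MALT1 and WWTR1 lay below the vehicle libraries. By the rule, none of the 11 had a log2 ratio below -0.3 at 48 h in A375, where vemurafenib was given at 0.1 µM. Colo800 and UACC62 received it at 1 µM, H3122 received crizotinib at 0.3 µM, and these lines have no 6 h libraries. Higher in both melanoma lines were 12 of the 55, 21.8%, with a background of 19.9%. BCAR3 had 1329 and 1381 normalised reads in treated Colo800 cells and 731 and 790 in vehicle, and in UACC62 it had 570 and 533 in treated cells and 209 and 199 in vehicle. ABTB1 was higher in H3122 as well, by 1.13 on the log2 scale, as were PALM (1.00) and ZNF704 (0.65). GJA5 was too low to be tested in any table outside A375 culture, and KIAA1755 in Colo800, UACC62 and H3122. The call of KDR in H3122 was lost under 6 of 13 alternatives, among them DESeq2, no filter, the replicate block, and leaving out vehicle replicate 1 or crizotinib replicate 1 or 2. That of DLX1 in H3122 was lost with DESeq2 (adjusted p = 0.0521), and that of PDGFA in UACC62 without vehicle replicate 1 or 2.

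**Figure D3:**
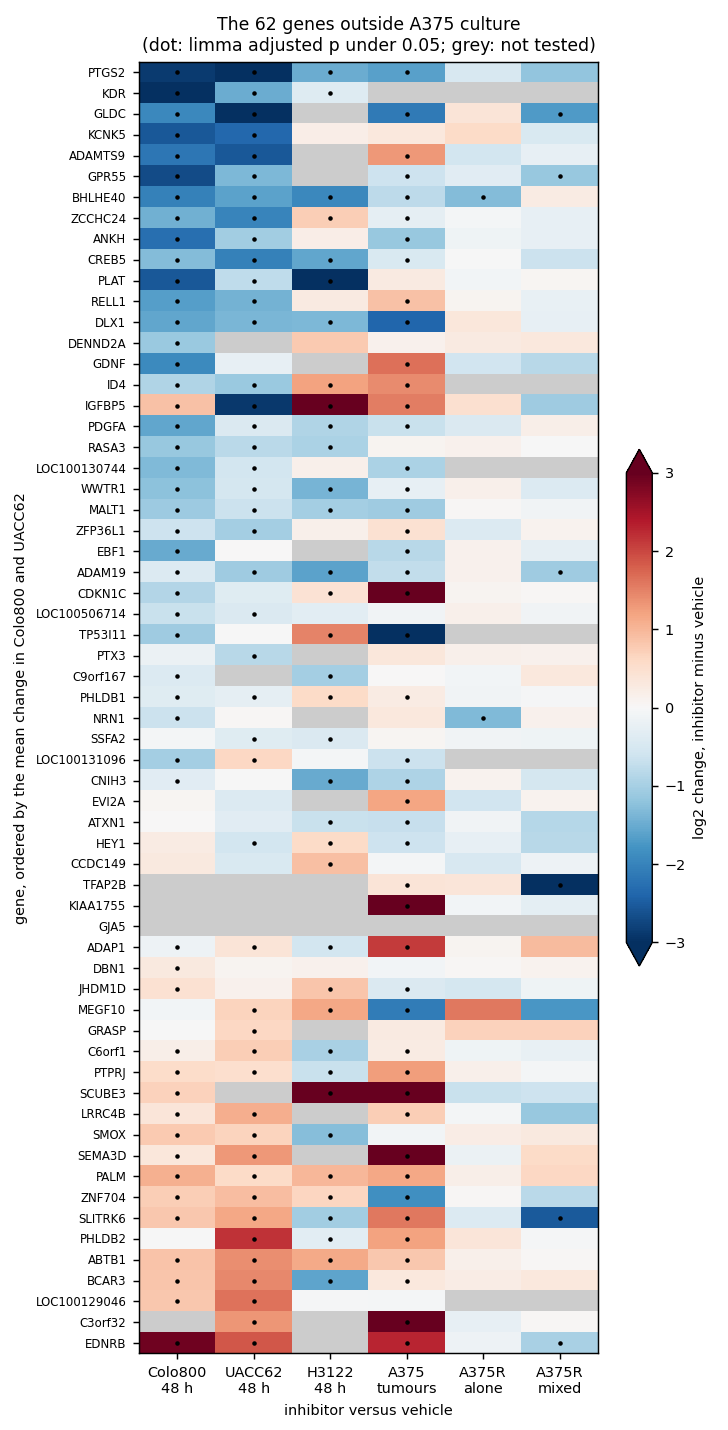
Log2 change, inhibitor minus vehicle, of the 62 genes (rows, ordered by their mean change in Colo800 and UACC62) in 6 comparisons (columns). Dots mark a limma adjusted p under 0.05 and grey cells genes that were not tested. PTGS2, BHLHE40 and DLX1 are blue with dots in Colo800, UACC62, H3122 and A375 tumours, EDNRB is red in the melanoma lines and A375 tumours, and the A375R columns hold few dots.

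In A375 tumours after 10 doses of vemurafenib, 60 members were tested and 24 were higher (background 34.2% of 14069 genes) and 22 lower (background 34%). The shares, 40.0% and 36.7%, were near those backgrounds, and the median log2 change was 0.10. Of the 485 genes, 464 were tested and 69.0% were lower, with a median of -0.83. The tumour RNA was ribosome-bound and its table was normalised apart from the culture table, so levels are compared within each. The summed melanocyte markers, EDNRB among them, ran from 10124 to 11570 normalised reads in treated tumours, against 1537 to 2184 in vehicle tumours, where DCT and TYR were at 0 in every library, and their part in the members' changes was not tested.

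SCUBE3 had 737, 527, 568 and 608 normalised reads in treated tumours and 51.3, 48.5, 48.9 and 59.7 in vehicle tumours (log2 change 3.52, SE 0.12, limma adjusted p = 3.76e-13). CDKN1C had 117, 85.3, 140 and 124 in treated tumours and 12.8, 12.5, 10.7 and 13.1 in vehicle tumours, a log2 change of 3.13. EDNRB had 360, 403, 381 and 387 in treated tumours and 86.6, 87.7, 63.1 and 74.2 in vehicle tumours, a log2 change of 2.29. In each of these genes all treated libraries lay above all vehicle libraries. KIAA1755 rose by 3.17, SLITRK6, a neuronal surface protein, by 1.59 and IGFBP5 by 1.53 on the log2 scale. ID4 had 245, 344, 357 and 216 in treated tumours and 167, 133, 76.3 and 75.7 in vehicle tumours, a log2 change of 1.41. SEMA3D had 40.6 to 44.0 in treated tumours and 0 to 10.7 in vehicle tumours, so its log2 change of 3.35 (SE 0.58) rests on few vehicle reads.

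TP53I11, a gene induced by p53, had 2.02, 1.01, 3.14 and 0 normalised reads in treated tumours and 194, 97.1, 233 and 186 in vehicle tumours (log2 change -6.25, SE 0.39, limma adjusted p = 4.42e-10). It was the largest change of any member tested there, and in A375 culture the same gene had 85.0, 130 and 73.4 in vehicle, 56.0, 39.7 and 54.8 at 6 h, and 223, 91.9 and 75.1 at 48 h. DLX1 had 251, 306, 312 and 243 in treated tumours and 1509, 1265, 1566 and 1434 in vehicle tumours, a log2 change of -2.38. GLDC had 71.7, 77.2, 85.6 and 47.0 in treated tumours and 290.2, 323, 306 and 299.8 in vehicle tumours, a log2 change of -2.13. MALT1 had 443, 582, 559 and 591 in treated tumours and 1320, 1129, 1076 and 1055 in vehicle tumours, a log2 change of -1.08. In DLX1, GLDC and MALT1 every treated library lay below every vehicle library. ANKH fell by 1.14 on the log2 scale. ADAM19 had 2597, 3418, 3301 and 3207 in treated tumours and 5898, 5114, 4873 and 4994 in vehicle tumours, a log2 change of -0.74. WWTR1 changed little, by -0.25, and PLAT, with 225 to 349 in treated and 209 to 283 in vehicle tumours, did not pass the test.

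**Figure D4:**
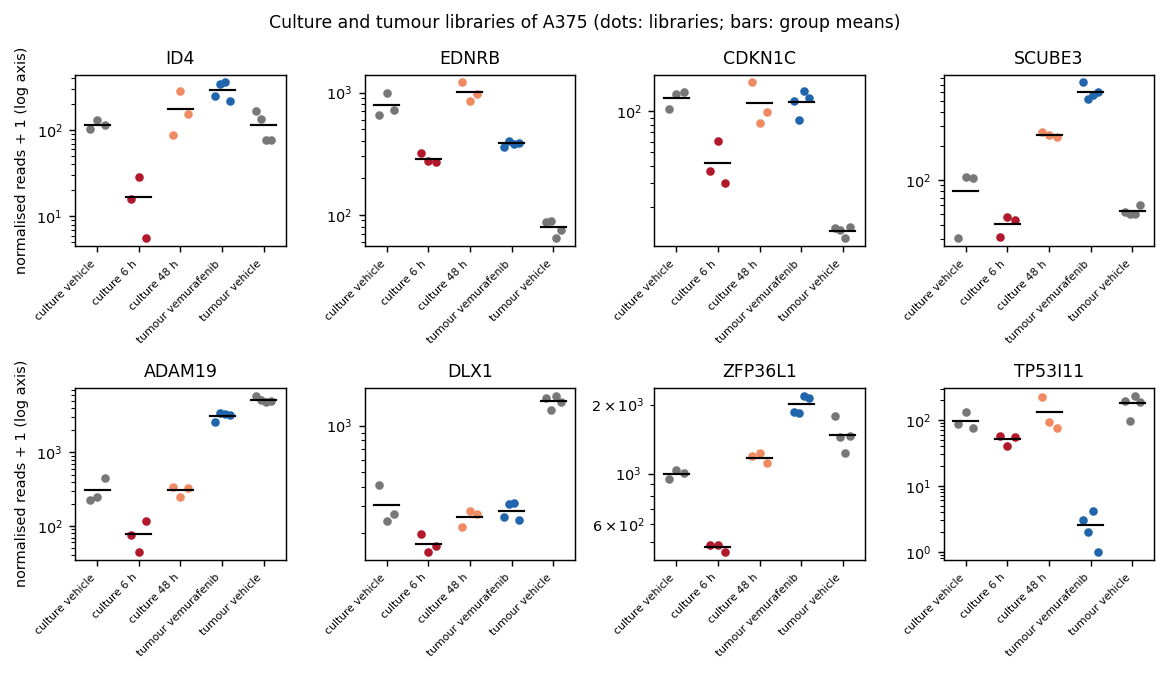
Normalised reads + 1 (log axis) of 8 members in each A375 library, culture at vehicle, 6 h and 48 h and then tumours with vemurafenib and with vehicle, with bars at group means; culture and tumour tables were normalised separately. EDNRB, CDKN1C and SCUBE3 are higher in treated than in vehicle tumours, DLX1 and TP53I11 are lower, and TP53I11 is near 0 in treated tumours.

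Of the 54 members tested in Colo800, UACC62 and A375 tumours, 9 were higher in all 3, 16.7%, with a background of 12.5%: EDNRB, SEMA3D, PTPRJ, BCAR3, SLITRK6, LRRC4B, ABTB1, PALM and C6orf1. Lower in all 3 were 13 of 54, 24.1%, with a background of 15%. ID4, ZFP36L1, PHLDB1, ADAMTS9 and RELL1 were lower in both melanoma lines and higher in the tumours, 5 of 54 (9.26%) with a background of 3.75%. ADAMTS9, a secreted protease, had 304 and 332 normalised reads in treated Colo800 cells and 1493 and 1368 in vehicle, while in A375 tumours it had 56.5, 87.3, 124 and 102 in treated and 46.5, 28.2, 34.1 and 34.9 in vehicle libraries. Of the 42 also tested in H3122, 8 were lower in all 4, 19.0%, with a background of 8.84%: ADAM19, CREB5, WWTR1, BHLHE40, DLX1, MALT1, PDGFA and PTGS2. In the tumours, the calls of BCAR3 and C6orf1 were lost without vehicle replicate 4, and that of BCAR3 also without treated replicate 3. In UACC62, the call of PTPRJ was lost without vehicle replicate 2. That of PHLDB1 there was lost under 7 of 12 alternatives: edgeR, DESeq2, quantile normalisation, no filter, the replicate block, and leaving out vehicle replicate 1 or 2. In Colo800 the call of C6orf1 was lost with DESeq2, with no filter, and without vehicle replicate 1 or treated replicate 2.

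In tumours of the resistant line, 55 members were tested. When A375R grew mixed with A375 cells, 6 were lower with vemurafenib (background 2.23% of 13755 genes) and 0 higher (background 1.24%). TFAP2B had 8.93, 13.8 and 7.32 normalised reads in treated mixed tumours and 203, 66.9 and 80.05 in vehicle mixed tumours (log2 change -3.28, SE 0.48, limma adjusted p = 0.00156). SLITRK6 had 25.2, 33.4 and 20.1 in treated mixed tumours and 216, 119 and 139 in vehicle mixed tumours, a log2 change of -2.53. GLDC had 22.7, 23.0 and 42.1 in treated mixed tumours and 122.9, 86.0 and 77.4 in vehicle mixed tumours, a log2 change of -1.70. EDNRB had 63.3, 56.4 and 75.9 in treated mixed tumours and 138, 127 and 120 in vehicle mixed tumours, and GPR55 and ADAM19 were lower too. At an unadjusted p under 0.05, 16 members were lower and 5 higher in limma, a cut-off at which the share of all genes was not counted. With adjusted p values 1 was higher in edgeR, where 157 of all 13755 genes were, and 1 in DESeq2, where 412 were. Without vehicle replicate 1 or without treated replicate 2, 3 calls were left, those of TFAP2B, SLITRK6 and GLDC, and without treated replicate 3 that of GPR55 was lost.

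In tumours of A375R alone, 2 members were lower with vemurafenib (background 0.487%), BHLHE40 by 1.30 and NRN1 by 1.31 on the log2 scale. Those higher numbered 0 (background 0.305%). At an unadjusted limma p under 0.05, 2 were higher and 6 lower, a cut-off at which the share of all genes was not counted. With adjusted p values 0 were higher in edgeR and 0 in DESeq2, where 32 and 316 of all 13755 genes were. BHLHE40 had 2113, 3185 and 2100 normalised reads in treated tumours and 6491, 5074 and 6368 in vehicle tumours (limma adjusted p = 0.0253). Both calls were lost, with 0 members left, without vehicle replicate 1 or 3 or treated replicate 1 or 2. TFAP2B had 4.63, 16.8 and 14.4 in treated tumours of A375R alone and 6.71, 10.7 and 7.15 in vehicle ones. The levels of TFAP2B, SLITRK6 and GLDC were thus high in mixed vehicle tumours and low in the other A375R groups. The mixed vehicle tumours also held the highest summed melanocyte markers, 1841 to 2224 normalised reads, against 1389 to 1514 in treated mixed tumours, 1165 to 1440 in treated tumours of A375R alone and 1204 to 1473 in vehicle ones. DCT and TYR were at 0 in all groups, save DCT in treated mixed tumours. In A375 tumours, a separate table, TFAP2B had 1275 to 2074 normalised reads in treated and 1172 to 1434 in vehicle libraries. Any part of A375 RNA in the mixed libraries was not tested.

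The difference between the responses, mixed minus alone, was below 0 for 4 members (background 0.974%), TFAP2B, SLITRK6, GLDC and ADAM19, and above 0 for 2 (background 1.91%), BHLHE40 and NRN1. For TFAP2B it was -3.64 (SE 0.67, limma adjusted p = 0.0201) and for BHLHE40 1.53 (SE 0.32, limma adjusted p = 0.0238). Without vehicle replicate 1 or 3 of A375R alone, or vehicle replicate 1 of the mixed tumours, 0 of the 6 calls were left. Without treated replicate 2 of A375R alone, 1 was left in each direction. The call of SLITRK6 was also lost without treated replicate 3 of the mixed tumours and with no filter. The calls of ADAM19 and NRN1 were lost without single libraries of all 4 groups or with no filter, that of ADAM19 also with the replicate block, and ADAM19 had a limma adjusted p of 0.0497.

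**Figure D5:**
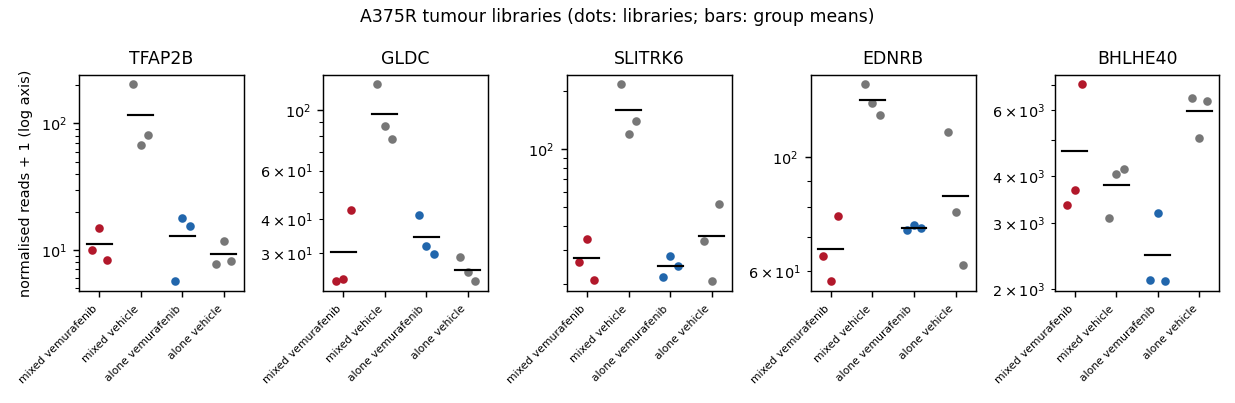
Normalised reads + 1 (log axis) of 5 members in each A375R tumour library, mixed with vemurafenib and with vehicle, then alone with vemurafenib and with vehicle, with bars at group means. TFAP2B, GLDC, SLITRK6 and EDNRB are highest in mixed vehicle tumours, and BHLHE40 is lowest in treated tumours of A375R alone.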

How the data were processed

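Each of the 6 deposited tables holds normalised read counts, a signal per gene and library that the authors scaled with a size factor. Tools listed in the submitters' processing notes, with no role, are DESeq 1.18.0, HTSeq 0.5.4 and STAR 2.3.0e, beside the genome builds mm9 and hg19. How mouse reads were handled is not stated there. Within each library the deposited signal came in whole multiples of the worth of 1 read, from which reads were recovered (100% whole within 0.1). The TruSeq kit, per the labels' protocols, does not mark strand, so genes that overlap another gene are uncertain.

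The rule was applied to group means of the A375 culture table. Other tables were tested with limma 3.58.1 (R 4.3.3) on log2(value + 1), with a mean-variance trend and genes with a mean of 10 or more, in a two-sided test with adjusted p under 0.05. Log2 changes are on that scale, which understates low genes. The 4 A375R groups shared a fit, and mixed tumours were read, from titles and the growth protocol, as A375R with A375. edgeR 4.0.16 and DESeq2 1.42.0 were run on the recovered reads as alternatives, and the tests were checked on simulated data.

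The members, lists and tests were chosen with earlier results of these data known. Named members are the 12 with the lowest 6 h ratio without overlap, the 5 with the highest vehicle mean, the 3 beside each threshold, members of a list, and the 4 per comparison and direction with the smallest adjusted p without overlap. Any other member named, such as CREB5 or PTPRJ, was chosen after its values were seen. A gene outside the 62 that this naming rule takes is not reported here. Same-numbered vehicle and 6 h libraries of A375 culture deviated together from their group means (correlations 0.647, 0.355 and 0.657). LOC100130744 was not analysed here in the A375R table.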

Additional observations from a re-analysis of the deposited data

Results flagged for a closer look

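In the groups of 4 tumours, 1 library stood far from the others in 3 of the 76 groups of member values examined, where chance gives about 1 in 20. GRASP had 45.4 normalised reads in its highest vehicle A375 tumour, with the next at 22.4. EVI2A had 19.9 in its lowest treated A375 tumour, with the next at 51.5. ZNF704 had 168 in its lowest vehicle A375 tumour, with the next at 224.

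The response to vemurafenib in A375R tumours was called different between mixed tumours and tumours of A375R alone for 6 members by limma's interaction contrast. The backgrounds were 0.974% of genes below 0 and 1.91% above 0. Of the 6 calls, 0 were kept under all alternatives. The log2 difference, mixed minus alone, was -3.64 for TFAP2B, -2.12 for SLITRK6, -2.08 for GLDC and -1.19 for ADAM19, and it was 1.53 for BHLHE40 and 1.45 for NRN1.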

How the results depend on the processing

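Membership moved most with its thresholds: 25 genes met the rule with the 6 h threshold at -1, 129 at -0.6, and 41 with the 48 h threshold at 0. With group medians 60 genes met it, of which 37 are members. Leaving out 1 library gave 56 to 90 genes. With the replicate number as a block, taken as the mean of the ratios within replicate numbers and added after seeing the data, 54 genes met the rule, of which 51 are members.

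For A375R alone, lower members numbered 0 with no filter, 4 with DESeq2 and 0 to 2 with 1 library left out. All genes called lower numbered 67 as reported, 10 with no filter, 432 with DESeq2 and 0 to 155 with 1 library left out. For mixed tumours, higher members numbered 1 with quantile normalisation, edgeR or DESeq2 and 0 to 1 with 1 library left out, and lower members 10 with DESeq2 and 3 to 8 with 1 library left out. All genes called higher there numbered 171 as reported, 152 with quantile normalisation, 157 with edgeR and 412 with DESeq2. Those lower numbered 307 as reported and 546 with DESeq2. With 1 library left out, 22 to 249 were higher and 74 to 346 lower. For the difference in response, members above 0 numbered 1 with no filter or quantile normalisation and 0 to 2 with 1 library left out, and members below 0 numbered 2 with no filter or a filter at 50, 7 with DESeq2 and 0 to 6 with 1 library left out. All genes called above 0 numbered 263 as reported, 109 with no filter and 172 with quantile normalisation. Those called below 0 numbered 134 as reported, 76 with no filter, 121 with a filter at 50 and 316 with DESeq2. With 1 library left out, 2 to 382 were above 0 and 8 to 179 below. The cause was not tested.

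In Colo800, UACC62, H3122 and A375 tumours every count of members stayed within 1.5 times its value under all alternatives. With the replicate number as a block, lower members numbered 33 in Colo800, 28 in UACC62, 20 in H3122 and 22 in A375 tumours. A crossed pairing in H3122, added after seeing the data, gave 22. Of 44 calls that were followed, 35 were kept under all alternatives, 0 turned, and 53 of 624 alternatives lost a call. These were up to 4 per comparison and direction, with the smallest adjusted p without overlap, and the 6 of the difference in response. Other calls of members, such as that of KDR in H3122, are not in this count. Shallow genes near 30 normalised reads carry the largest counting error.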
